A study of Mus musculus with 2 samples.

Results

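The adipocyte marker genes are 9 genes that mature fat cells transcribe at a high level and by which fat is recognised in a tissue sample: Adipoq, Retn and Cfd, which encode secreted products of fat cells, Lpl, Fabp4, Cidec and Plin1, which serve the uptake, carriage and storage of lipid, Car3, an abundant cytosolic enzyme, and Pparg, the nuclear receptor of fat cell formation. Members were taken as all probe sets whose symbol in the platform annotation is 1 of these 9. This found 14 probe sets for 7 of the genes, out of 45037 probe sets that are not controls. Cfd and Plin1 had no probe set under those symbols in the annotation used here, so their expression was not analysed here. The genes were chosen with earlier results of these arrays known, so their values are a description and were not tested.

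Gene expression had been measured in whole pancreas of male C57BL/6J mice aged 10 weeks, on 1 Affymetrix expression array per group. The control group came from dams on a control diet over the same window of gestation. The threonine-deficient group came from dams whose diet lacked sufficient threonine, an essential amino acid, from embryonic day 12.5 to 14.5. All offspring were weaned at 3 weeks onto control diet and had no treatment of their own after birth. Each array read 1 pool of RNA, and the sources used here do not say how many animals went into a pool. With 1 pool per group there was no replicate, so no p-value or standard deviation between samples exists, and each difference is between these 2 pools.

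Fat is not part of the exocrine or endocrine pancreas, but adipocytes lie between the lobules and in the fat that surrounds the organ. In such cells lipoprotein lipase frees fatty acids from circulating lipoproteins, a fatty acid binding protein carries them in the cytosol, and the triglyceride made from them is held in a droplet coated by perilipin and enlarged by the CIDE protein encoded by Cidec. The program is driven by PPARG together with the C/EBP transcription factors, and adiponectin, resistin and adipsin are released from the cells into the blood.

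Promoters of some members are shown as a description only, and their relation to the signals was not tested. The RefSeq table, of assembly GRCm38.p6, held windows for 6 of the 9 members, among them Adipoq, Cidec, Retn and Pparg. In the 250 bases before each start, 4 sets of letters were searched on both strands: TATAAA (the TATA box), AGGTCA (the hexamer bound by nuclear receptors), AGGTCA repeated after any 1 base (the direct repeat, which contains the hexamer), and TTGC followed by any 2 bases and AA (a C/EBP-like sequence). Capitals in the sequences below mark matches, and none of these was tested for binding. They stand for a member with a single start (Adipoq, chr16:23146286-23146535, plus strand), a second start of Cidec (chr6:113434765-113435014, minus strand) and a start of Pparg (chr6:115421816-115422065, plus strand).
Adipoq: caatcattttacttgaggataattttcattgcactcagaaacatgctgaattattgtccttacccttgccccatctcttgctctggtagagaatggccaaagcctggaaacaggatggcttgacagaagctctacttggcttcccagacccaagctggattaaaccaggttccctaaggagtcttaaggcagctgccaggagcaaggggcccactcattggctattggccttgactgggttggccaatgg
Cidec: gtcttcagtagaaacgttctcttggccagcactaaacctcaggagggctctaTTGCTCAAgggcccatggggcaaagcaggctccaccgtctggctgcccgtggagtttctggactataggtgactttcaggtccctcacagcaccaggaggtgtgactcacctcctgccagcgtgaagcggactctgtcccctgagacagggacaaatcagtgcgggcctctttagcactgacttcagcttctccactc
Pparg: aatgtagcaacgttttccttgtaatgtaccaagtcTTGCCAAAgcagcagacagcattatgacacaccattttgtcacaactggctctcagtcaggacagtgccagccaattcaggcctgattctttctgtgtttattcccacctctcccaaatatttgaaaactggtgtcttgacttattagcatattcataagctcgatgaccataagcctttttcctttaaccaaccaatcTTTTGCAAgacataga

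The Adipoq window and that of Retn held none of these letters, nor did the other Cidec window. The Cidec window shown held 1 C/EBP-like match, from 198 to 191 bases before the start, and the Pparg window shown held 2 such matches. The other Pparg windows held a hexamer each, and 1 of them also a TATA box. Plin1, which had no probe set, held C/EBP-like matches from 187 to 180 and from 58 to 51 bases before its start. The Cfd window held none of these letters. Over all 32851 windows of this length in the table, 12.4% held TATAAA, 14.0% the hexamer, 0.0335% the direct repeat and 9.56% the C/EBP-like letters. The direct repeat was found in no member window.

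The arrays gave MAS5 signals on a linear scale, an arbitrary unit of brightness per probe set. Signals under 264.9, the higher of the 60th percentiles of both arrays, were set to that floor before log2 was taken, since dim probe sets carry little information. The log2 ratio sets the threonine-deficient pool over its control, so a negative value is a lower signal in the threonine-deficient pool, and a gene is called lower or higher at a difference of at least 2-fold. Each gene was represented by its brightest probe set. The error of a single log2 ratio is given as the local spread, the scaled median absolute deviation over the 500 genes of most similar signal, which covers array noise and the differences between the pools but not the spread between animals.

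Of the 7 members measured, 6 had a lower signal in the threonine-deficient pool, and 3 of these, Adipoq, Car3 and Cidec, were at least 2-fold lower. Among all 10758 genes above the floor on at least 1 array, 0.874% were at least 2-fold lower and 49.9% had a negative log2 ratio. These shares are given beside the count, and nothing is read from the comparison because the members had been chosen on this contrast. The median log2 ratio was −0.98 for the members and 0.00 for all genes above the floor. No member was at least 2-fold higher, as were 1.28% of all genes. At 1.5-fold 4 members were lower, with Fabp4 added, and none higher, where 5.36% of all genes were lower and 7.2% higher. All 7 members passed the filter on low signals, Cidec through the control array and Pparg through the threonine-deficient array alone. In bulk tissue a smaller number of fat cells and less of each RNA per fat cell cannot be told apart.

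**Figure D1:**
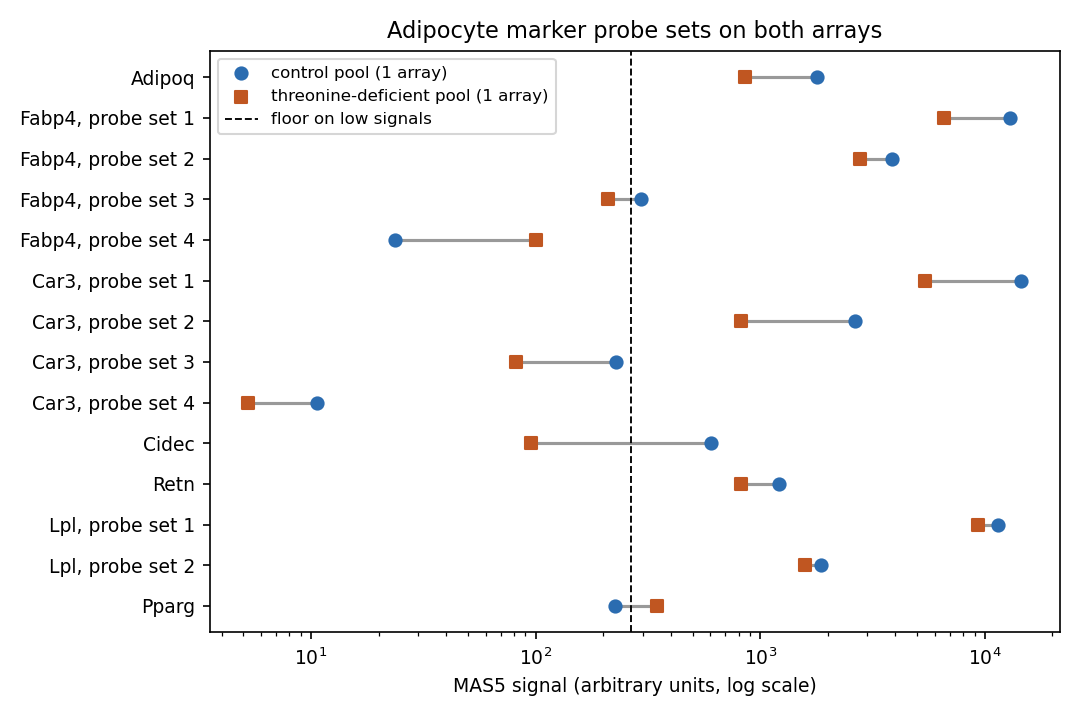
MAS5 signal (log scale) of the 14 probe sets of the adipocyte marker genes in the control pool (circles) and the threonine-deficient pool (squares), 1 array each, with the floor as a dashed line. The square lies to the left of the circle in 12 of 14 probe sets, the exceptions being Pparg and a dim Fabp4 probe set that is under the floor on both arrays. In all, 3 of the 14 probe sets are under the floor on both arrays and carry no ratio.

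Among the secreted products, adiponectin, the hormone that raises insulin sensitivity in liver and muscle, was read by 1 probe set of Adipoq. Its signal was 1787 in the control pool and 855 in the threonine-deficient pool. The signal in the latter was 47.8% of the control, which is −1.06 as a log2 ratio, and the local spread was 0.29. Adipoq had the lowest ratio of the 500 genes of similar signal, and with a pseudocount equal to the floor in place of the floor its log2 ratio was −0.87, short of 2-fold. Resistin, which opposes insulin action in mice, was also read by 1 probe set, of Retn. The signal was 1216 in the control pool and 819.7 in the threonine-deficient pool, a log2 ratio of −0.57 beside a local spread of 0.33. Retn was thus lower by less than 2-fold, and 29 of the 500 genes of similar signal, itself included, had a ratio as low or lower.

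Lpl encodes lipoprotein lipase, which is made by fat cells, muscle and macrophages and acts on the wall of capillaries. Its brighter probe set gave 11407 in the control pool and 9278 in the threonine-deficient pool. Its other probe set gave 1859.9 and 1585. The log2 ratios were −0.30 and −0.23, so both probe sets were a little lower in the threonine-deficient pool and differed from each other by 0.07. The local spread was 0.16 for the brighter one. Of the genes with a lower signal in this set, Lpl had the smallest difference.

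Fabp4, the cytosolic fatty acid carrier of adipocytes, which macrophages and capillary endothelium also make, was read by 4 probe sets. The brightest gave 12966 in the control pool and 6592 in the threonine-deficient pool, a log2 ratio of −0.98 where the local spread was 0.16. This is 1.97-fold lower and so lies just short of the 2-fold line. The second gave 3855 and 2792, a log2 ratio of −0.47. The third gave 294 and 211, where the latter is under the floor, and its log2 ratio of −0.15 is a bound. The 3 that reached the floor were all lower in the threonine-deficient pool, but the first and second, above the floor on both arrays, differed in size by 0.51 on the log2 scale. With no floor the third had −0.48, close to the second. The fourth, with 23.7 and 100.1, was under the floor on both arrays and carries no ratio. Without probe sets ending in _a_at, which can read alternative transcripts of 1 gene, only the bound of −0.15 was left for Fabp4.

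Cidec, also known as Fsp27, lets lipid droplets of white fat cells fuse into 1 large droplet. Its 1 probe set gave 604 in the control pool and 95.3 in the threonine-deficient pool. The second value is under the floor, so the signal was at least 2.28-fold lower. The local spread near the floor was 0.60, wider than for the bright members, and is shaped in part by the floor itself. Cidec was therefore called from 1 measured signal and 1 bound. Its log2 ratio was −2.66 with no floor and −0.24 with the floor at the 75th percentile, where it was no longer called.

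Car3, carbonic anhydrase 3, is among the most abundant cytosolic proteins of rodent white fat and occurs also in skeletal muscle and liver. The brightest of its 4 probe sets gave 14501 in the control pool and 5434 in the threonine-deficient pool, a log2 ratio of −1.42 where the local spread was 0.16. The second gave 2633 and 818, a log2 ratio of −1.69. Both probe sets were thus at least 2-fold lower, by 2.67-fold and 3.22-fold, and they differed from each other by 0.27. The remaining probe sets, at 227 against 81.8 and 10.7 against 5.26, were under the floor on both arrays and carry no ratio. Of all 10758 genes, 12 had a ratio as low as that of Car3 or lower, itself included.

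Pparg stood on the other side. Its 1 probe set gave 226 in the control pool, under the floor, and 347 in the threonine-deficient pool, so its signal was at least 1.31-fold higher. The log2 ratio of 0.39 is a bound, set by 1 signal and the floor. The local spread was 0.30, and 388 of the 500 genes of similar signal had a ratio as low or lower. The floor shapes the ratios of these 500 genes too, whose median was 0.26, so neither value measures the error of the Pparg ratio. The dim signal of the receptor gene on both arrays leaves its direction poorly measured.

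**Figure D2:**
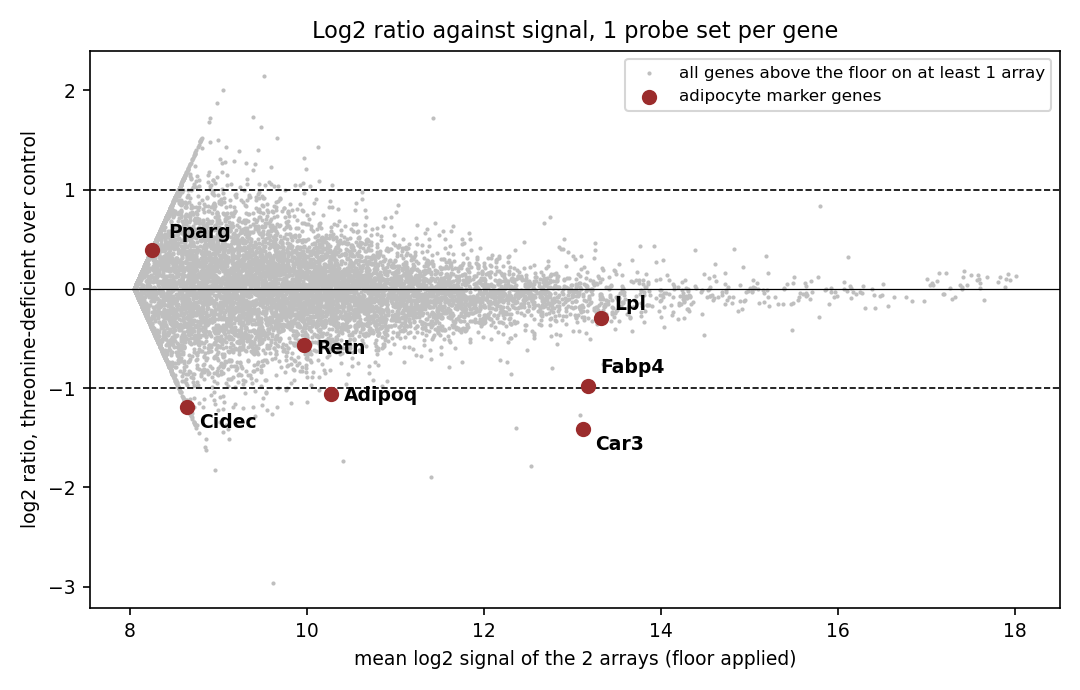
Log2 ratio of the threonine-deficient over the control pool against mean log2 signal for 10758 genes (grey), with the 7 adipocyte marker genes in red and the 2-fold lines dashed. The V-shaped edge at the left is made by genes at the floor on 1 array; Cidec and Pparg lie on it, and Car3, Fabp4 and Adipoq lie below nearly all genes of similar signal.

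How far probe sets of 1 gene agree sets the precision of these values. In 4251 genes at least 2 probe sets reached the floor, and from the gap between the brightest pair each reading had an error (SD, log2) of 0.33; 51.9% of the pairs had the same sign. In the 1063 genes where the dimmer of the pair was brightest it was 0.19, and 56.6% shared a sign. Of the 11 member probe sets that reached the floor on at least 1 array, 10 were lower, and within Car3, Fabp4 and Lpl, the 3 members with several, they shared that sign. Between probe sets above the floor on both arrays, the gap was 0.07 in Lpl, 0.27 in Car3 and 0.51 in Fabp4. The errors are those of 1 reading, and a gap between 2 readings has a larger error, so the gaps are not ranked against them. When a gene was read by the median over all its probe sets, which counts those under the floor as 0, Car3 had −0.71 and so was no longer 2-fold lower, Fabp4 had −0.31, and the median of the members was −0.57.

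The members belong to gene families, whose other genes were read in the same way. Of the carbonic anhydrases, 10 of 16 reached the floor, 3 with a lower and 7 with a higher signal. Car2, the carbonic anhydrase of duct cells and the next protein-coding gene to Car3 in the RefSeq order, gave 349 in the control pool and 1541 in the threonine-deficient pool, a log2 ratio of 2.14 against −1.42 for Car3. Car1 and Car13, on the other side of Car3, were under the floor on both arrays. Car5b, a mitochondrial form, was at least 2.33-fold lower (619 against 152), while its other probe set gave 0.18. Car8 had −0.06 and, as a bound, −0.29 in its probe sets, and Car4 had 0.27 but −0.43, a bound, in its other one. The 2 neighbouring genes Car3 and Car2 thus lay at opposite ends of the family.

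Of the fatty acid binding proteins, 4 of the 12 genes with a named probe set reached the floor. Fabp5, the form of skin and macrophages that fat cells also make, lies in the same run of genes as Fabp4. It gave 3033 and 2514, a log2 ratio of −0.27, but its other probe set gave 0.39. Fabp3, the form of heart and muscle, was under the floor in the control pool and had 0.69 as a bound, and Fabp12, at 308 against 108, had −0.22 as a bound. Fabp5 was thus the only relative of Fabp4 above the floor on both arrays.

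Of the perilipins, Plin2, which coats droplets in most cell types, had signals of 1150.4 (control) and 577 (threonine-deficient), lower by 1.99-fold and so just short of 2-fold. Plin4 had −0.23 and Plin3 had 0.09, and Plin5 was under the floor on both arrays. Cidea and Cideb, the relatives of Cidec, were under the floor on both arrays as well. Retnla, a resistin-like gene of alternatively activated macrophages, gave 1091 and 1649.5, a log2 ratio of 0.60 where Retn had −0.57. Among the relatives of adiponectin, C1qtnf12 alone reached the floor, with 0.05 in its brightest probe set and from −0.64 to 0.85 in the others. Ppara, the PPAR of fatty acid oxidation, had 0.38 and Ppard −0.15. Of the relatives of Lpl made by acinar cells, log2 ratios were 0.13 for Pnliprp1, 0.01 for Pnliprp2 and 0.14 for the cholesterol esterase gene Cel.

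**Figure D3:**
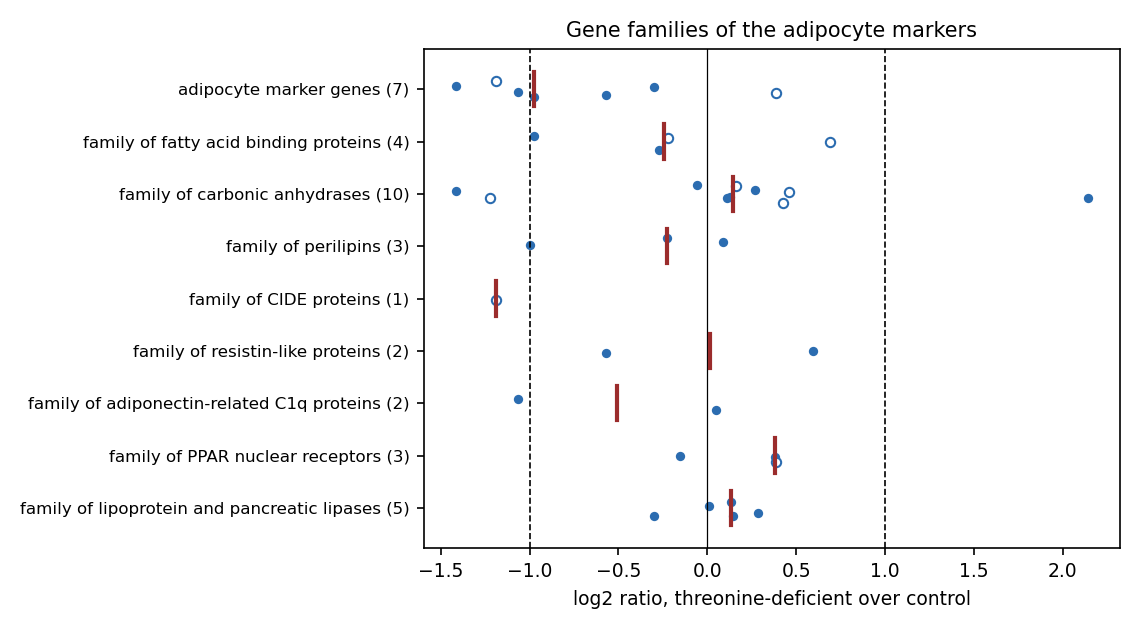
Log2 ratio of each gene above the floor in the 8 families that hold an adipocyte marker gene, with the markers in the top row and the number of genes in brackets. Filled points were above the floor on both arrays, open points on 1 and so are bounds, and red bars are medians; the carbonic anhydrases spread from −1.42 for Car3 to 2.14 for Car2.

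Other genes of fat cell biology were taken from 11 lists, with the members left out. Of 151 genes, 92 reached the floor, 59 with a lower and 33 with a higher signal, and their median log2 ratio was −0.12. At least 2-fold lower were 4 of them, or 4.35%, against 0.874% of all genes. At least 2-fold higher were 3, against 1.28% of all genes. Among these called genes, Lipe and Pck1 passed the filter through the control array alone, and Pi16 through the threonine-deficient array alone. The lists were chosen with earlier results of these arrays known, so nothing is read from the shares.

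The lipid droplet and lipolysis list had 7 of 10 genes lower and a median of −0.29. Lipe, the hormone-sensitive lipase that splits stored fat in fasting, gave 571 in the control pool and 243 in the threonine-deficient pool, under the floor, and was at least 2.16-fold lower. Pnpla2, the lipase that takes the first step of that breakdown, had −0.58, Mgll, which takes the last, −0.52, and Abhd5, the activator of PNPLA2, −0.36. Other probe sets of Mgll gave values from −0.29 to 0.69. G0s2, an inhibitor of PNPLA2 named after its value was seen, had 0.21.

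Genes of triglyceride and glycerol synthesis had 5 of 7 lower and a median of −0.26. Pck1, which supplies glycerol phosphate in fat cells, gave 936 and 198, the latter under the floor, and was at least 3.53-fold lower, with −0.46 as a bound in its other probe set. Dgat1 had −0.65 and Gpd1 −0.54, although other probe sets of Gpd1 gave 0.67 and −0.68. Dgat2 had 0.33 and −0.85 in its probe sets, which went opposite ways.

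Fatty acid synthesis had 10 of 13 genes lower, with a median of −0.09. Scd1, the desaturase, gave 10992 in the control pool and 3188 in the threonine-deficient pool (−1.79), and its dimmer probe set, at 943 and 532, had −0.83. Me1, malic enzyme, which supplies NADPH, gave 908 and 439.8, a log2 ratio of −1.05 with −0.39 in its other probe set. Thrsp had −0.97, Fasn −0.63 and Elovl6 −0.48. Acacb, the acetyl-CoA carboxylase that restrains fatty acid oxidation, had 0.68. The low values were thus few and large, beside a list median near that of all genes.

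Other surface and marker genes of fat cells had 7 of 11 lower and a median of −0.14, with none at least 2-fold apart. Lgals12, galectin 12 of the lipid droplet, gave 1088 and 597, a log2 ratio of −0.87 that its other probe set, with 0.13, did not share. Cavin1, which shapes the caveolae that are dense on fat cells, had −0.69, with 0.14 in its other probe set. Cav2 had −0.53, and Acvr1c, the ALK7 receptor of fat cells, had 0.51 and −0.48 in its probe sets. Of the other secreted factors, 5 of 8 were lower, with a median of −0.10. The largest difference in this list was that of Retnla, which was higher, at 0.60. Rbp4, retinol binding protein, had −0.46 and Metrnl −0.35. Lep and Adig lie outside the naming rule and are given as defining fat cell genes. Lep, the leptin gene, read 149.9 in the control pool and 84.6 in the threonine-deficient pool and was under the floor on both, as was Adig, a small protein of fat cells, at 201 and 104. Such readings carry no ratio, and others of the surface and marker list under the floor read higher, as did Trarg1 (140.7 against 218.9) and Slc7a10 (164.3 against 233.3). With no floor the median was 0.05 for the surface and marker list and −0.29 for the other secreted factors.

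For the adipokines, the genes of their receptors and assembly were balanced, with 4 of 8 lower and a median of 0.04. Cdh13, T-cadherin, the receptor that holds adiponectin on vessel walls, gave 523 in the control pool and 1102 in the threonine-deficient pool (1.07), and its other probe set had 0.07 from the floor. The signalling receptor gene Adipor1 had −0.20, and its dimmer probe sets gave −0.07 and 0.09. Adipor2, named after its value was seen, had −0.16, but −1.04 as a bound in its other probe set. Gstk1, also called DsbA-L, which assists adiponectin assembly, had 0.64, and the adaptor gene Appl1 had −0.60. Among the cofactors of lipoprotein lipase, 6 of 8 were lower, with a median of −0.16. Apoc1, which inhibits the lipase, had −0.80 and Angptl4, a further inhibitor, −0.77. Gpihbp1, the capillary anchor of the enzyme, had −0.26. For adipsin itself no value is given here, and of its complement partners only C3ar1, the C3a receptor gene (0.61), and Cd55 (−0.54) reached the floor, each on 1 array.

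Transcription factors of fat cell formation had 10 of 15 lower, with a median of −0.09. Cebpa and Cebpd, partners of PPARG, each had −0.53, and Nrip1, a corepressor, had −0.71, whereas 2 further probe sets gave 0.44 and 0.04. Ppargc1b, a coactivator, had 0.51. Of the preadipocyte genes and inhibitors of fat cell formation, 4 of 6 were higher, with a median of 0.57. Gata2, which holds back fat cell formation, gave 687 and 1439 (1.07), and Pi16, of fibroblast-like progenitors, was at least 2.20-fold higher (234 against 584). Cd34 had −0.69 and Pdgfra −0.31. With the floor at the 75th percentile the median of this list was −0.06, and it was 0.08 once probe sets ending in _s_at, _x_at or _a_at were left out. Of 14 genes of brown and beige fat 4 reached the floor, among them Ucp1, the uncoupling protein, at 159 in the control pool and 429.7 in the threonine-deficient pool. Its log2 ratio of 0.70 is a bound.

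**Figure D4:**
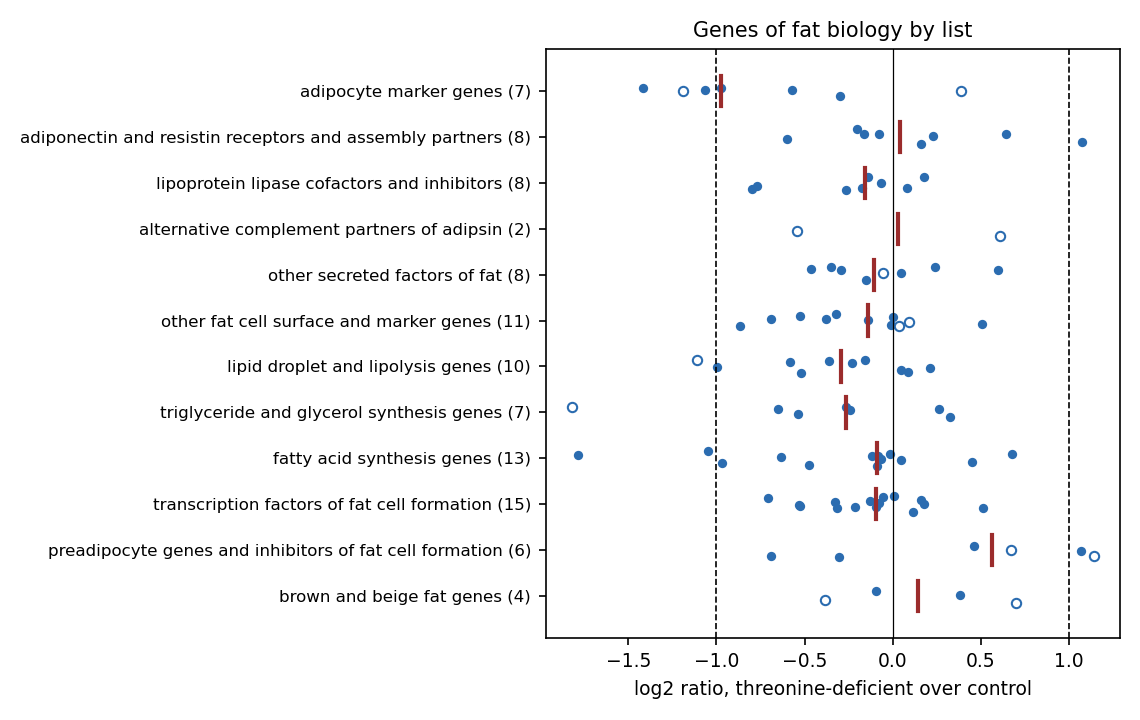
Log2 ratio of each gene above the floor in the adipocyte marker genes (top row) and 11 lists of fat cell biology, with the number of genes in brackets. Filled points were above the floor on both arrays, open points are bounds, and red bars are medians, which run from −0.98 for the markers to 0.57 for the preadipocyte list.

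Several markers are made by other cells as well, so markers of 10 other cell types were read beside them. Their part in the member values was not tested. The summed signal of the 7 members was 42707 in the control pool and 23420.2 in the threonine-deficient pool, or 54.8% of the control. Macrophage markers, of interest for Fabp4 and Lpl, summed to 101.4% of the control, with 5 of 9 higher, 4 lower and a median log2 ratio of 0.31. The brightest of them went both ways, with −0.43 for Lyz2, 0.51 for Csf1r and −0.19 for C1qb. Other probe sets of Csf1r gave 0.25 and 0.10, and those of C1qb −0.03 and 0.17. Apart from Csf1r, the higher macrophage genes were dim, with control signals from 344 to 401. Endothelial markers, of interest for Fabp4, summed to 128% of the control, with 8 of 9 higher and a median of 0.36. Of these, Flt1 and Kdr, named after their values were seen, were under the floor in the control pool. Flt1 gave 213 and 755 in its brightest probe set, but −0.13 and −0.08 as log2 ratios in its others. Fibroblast and stellate cell markers summed to 101.2%, with a median of 0.05. Skeletal muscle and liver, where Car3 is also made, showed no marker at a lower signal above the floor: only Ckm (307 against 508) of 10 muscle genes and Alb (279 against 320.2) and Apoa2 (344 against 558) of 8 liver genes reached it.

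Acinar cell markers summed to 107.7% of the control, with 8 of 9 higher and a median of 0.12. Islet cell markers summed to 82.2%, with 9 of 10 lower and a median of −0.34. Lymphocyte markers summed to 55.6%, through Ighm, which gave 5210.1 and 1398 in its brightest probe set, a log2 ratio of −1.90. Other probe sets of Ighm gave −0.63, −0.75, 0.57 and, as a bound, −0.94. The other 4 lymphocyte genes above the floor had higher signals. Duct markers summed to 89.2% and mesothelial markers, of which 2 reached the floor, to 93.0%. Sums of signal are in arbitrary units, were taken without the floor and weigh bright probe sets most.

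**Figure D5:**
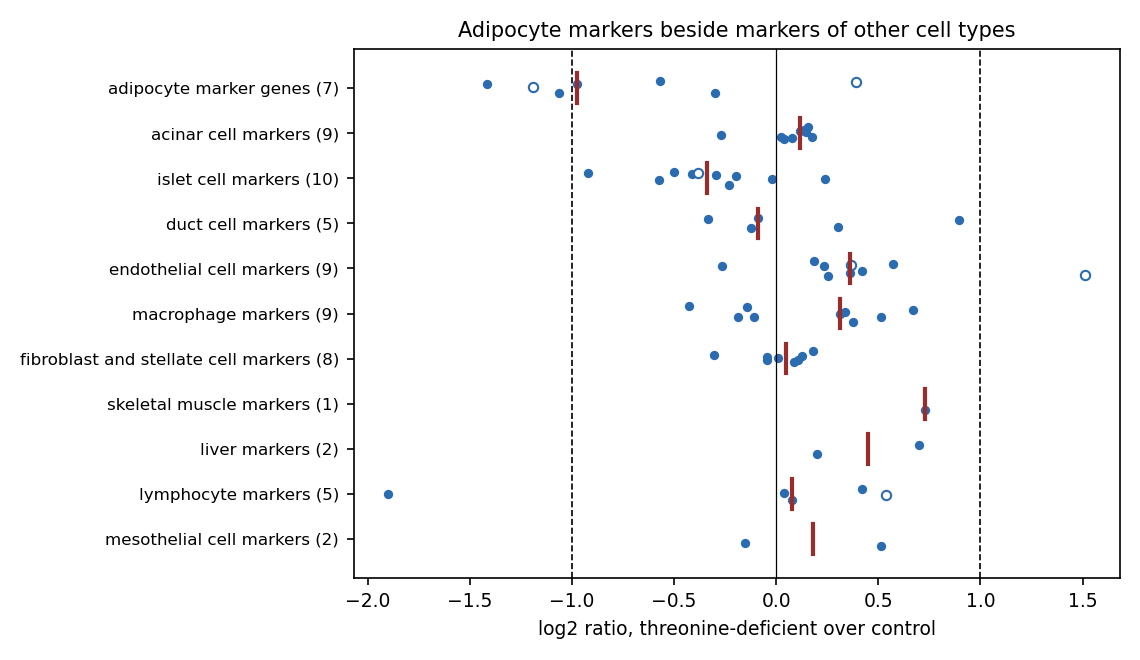
Log2 ratio of each gene above the floor in the adipocyte marker genes (top row) and markers of 10 other cell types, with the number of genes in brackets. Filled points were above the floor on both arrays, open points are bounds, and red bars are medians, which are −0.98 for the adipocyte markers, −0.34 for islet cells and 0.36 for endothelial cells.

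Outside all lists, the 6 genes whose log2 ratio lay nearest the members' median were Otub2, Pard6b, Ptch1, Slc40a1, Asxl1 and Lce1i, with values from −0.97 to −0.98, out of 7100 genes with adequate signal. The other probe sets of Pard6b, Slc40a1 and Asxl1 gave −0.30, 0.27 and 0.07. Likeness here rests on 1 ratio from 2 arrays, and these genes were picked for that value.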

How the data were processed

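Total RNA of whole pancreas was hybridised to Affymetrix Mouse Genome 430 2.0 arrays, 1 pool per group. The deposited values are a linear signal intensity per probe set, made by the authors with MAS5 (no version named) per the submitters' processing notes; detection calls were not used here. The mean after trimming 2% at each end was 500 on both arrays, so ratios are relative to the rest of an array. The table held 45101 probe sets, 64 of them controls. Of the rest, 34945 carried 1 gene symbol, 932 several and 9160 none; probe sets with several were not named. Symbols were updated by gene identifier through RefSeq (34741 matched), giving 18193 genes.

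Signals under the floor were raised to it, log2 was taken, and the brightest probe set stood for a gene. No test was possible. Of the control probe sets above the floor, 16 for hybridisation had log2 ratios from −0.32 to 0.04 and 24 for polyadenylated transcripts from −0.39 to 0.53. Members and lists were chosen with earlier results of these data known. Genes were named by rule: every member, and per list those at least 2-fold apart and up to 4 others of largest absolute log2 ratio, with families named freely and cell types by their brightest genes. Alternatives changed the floor, pseudocount, centring, probe set choice and fold. Calling was tested on simulated data, a simulated threonine-deficient over control comparison of 10651 genes with noise set by hand. Called were 83 of 100 genes set 1.5 apart on the log2 scale, 89 of 100 set 3.0 apart and 21 of 10451 unchanged genes. At the signal of Adipoq the noise set was smaller than the local spread of 0.29. These counts therefore do not give the rate of false calls on these arrays. Python 3.11.15, pandas 2.3.3 and statsmodels 0.14.6 were used.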

Additional observations from a re-analysis of the deposited data

How the results depend on the processing

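Adipoq, Car3, Cidec, Fabp4, Lpl and Retn had negative log2 ratios under all 8 alternatives that change the values, and Pparg a positive one in the 6 that kept it above the floor or held its probe set. Of the members 3 were at least 2-fold lower, 2 with the floor at the 75th percentile, with a pseudocount or with the median over probe sets, and 4 at 1.5-fold. Their median log2 ratio moved from −0.98 to −0.57 with the median over probe sets. The counts over all genes, 94 lower and 138 higher, moved to 1951 and 2559 with no floor, 206 and 341 when the floor was the 50th percentile, and 23 and 23 at the 75th. They were 52 and 86 with a pseudocount equal to the floor, 39 and 65 with the median over probe sets, and 577 and 775 at 1.5-fold. After removal of a loess trend they were 128 and 100, so that more genes were lower than higher. The causes of these shifts were not tested, beyond fewer or more genes passing each floor. No paired analysis was possible because each group had 1 pool. Low signal limits Cidec and Pparg, each with 1 reading under the floor.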
